A study of Rattus norvegicus with 24 samples.

Results

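The response to MDBP (methylenedioxybenzylpiperazine), a piperazine designer drug in which benzylpiperazine carries a methylenedioxy group on its aromatic ring, was measured in primary rat hepatocytes against paired solvent controls. The comparison holds 6 of the 24 samples of the series. They are the 3 samples whose titles name MDBP, given at 467 µM for 24 h, and the 3 samples with 0.1% DMSO whose titles name those treated samples as the ones they control. These pairs, the treated samples 19, 21 and 23 with their controls, are called pairs 1, 2 and 3. Hepatocytes of all groups were kept between collagen layers, a sandwich culture that helps them keep liver functions, and were left for 24 h after seeding. The study gave each of 4 piperazines at its EC20, a concentration chosen for a limited effect, to learn which genes respond to them. The other drugs were BZP (benzylpiperazine) at 625 µM, TFMPP (trifluoromethylphenylpiperazine) at 35 µM and MeOPP (methoxyphenylpiperazine) at 522 µM, each with 3 DMSO controls of its own. RNA was hybridised to Affymetrix rat arrays, and values are log2 expression after RMA, a method that corrects background, makes the arrays' distributions equal and joins the probes of a probe set. Neither the rat strain nor the animal or culture behind a sample is labelled. The p-values therefore rest on the scatter among these arrays, and part or all of it may be technical.

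Hepatocytes make bile acids, glucose and most plasma proteins, break down amino acids, and convert drugs with cytochromes P450 and conjugating enzymes. Cholesterol in them is held in balance by the SREBP factors, which stay in the endoplasmic reticulum with Insig proteins while sterol is plentiful and otherwise switch on the enzymes of cholesterol synthesis. ATF4 is a factor made when amino acids run short or the endoplasmic reticulum is under load, and it turns on genes for amino acid synthesis and import. The receptors AHR, CAR and PXR sense foreign compounds and drive sets of P450 genes.

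The 6 arrays had medians between 4.453 and 4.496. Albumin (Alb) gave the highest value of the array on all 6, between 14.06 and 14.07, so a change in it could not be read there. The 10 hepatocyte markers had values above the median of all genes. Summed on the linear scale they reached 53020 to 62250 in the controls and 42610 to 49900 with MDBP. The 3 controls correlated with each other over probe sets at 0.9899 (1 and 2), 0.9769 (1 and 3) and 0.9806 (2 and 3). The first MDBP control correlated at 0.9956 to 0.9963 with the first controls of the other drugs, and the third at 0.9943 with the third of BZP. Control levels of single genes could differ widely between pairs, and differences are given within pairs.

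MDBP changed the liver programme of these cells in both directions, with the larger changes among genes that fell. The strongest rise was that of Gpnmb, a glycoprotein of lysosomes and phagocytic vesicles, followed by Rragd, a GTPase through which lysosomes report amino acid supply to mTORC1, and Fads1, the delta-5 fatty acid desaturase. Slc10a1, which brings bile acids from the blood into the cell, fell most. In limma, with 12 pair terms and 4 drug terms fitted over all 24 arrays, 2167 of 31042 probe sets (6.98%) changed at an adjusted p under 0.05, of which 1000 were higher and 1167 lower. Of these, 255 differed at least 2-fold, 61 higher and 194 lower. With each gene taken by its probe set of highest mean, 665 of 14217 genes (4.68%) were higher and 718 (5.05%) lower, and the median difference of all genes was 0.016. The sign in a single pair was that of the fit for 2164, 2166 and 2165 of the 2167 probe sets in pairs 1, 2 and 3. These probe sets were called from the same 3 pairs, which favours such agreement. Differences of at least 2-fold were found for 226 probe sets in pair 1, 406 in pair 2 and 566 in pair 3. The count of changed probe sets was 959 without pair 2 and 821 without pair 3. It was 28 with the pair terms left out and 294 with the 12 DMSO arrays joined into 1 control group.

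**Figure D1:**
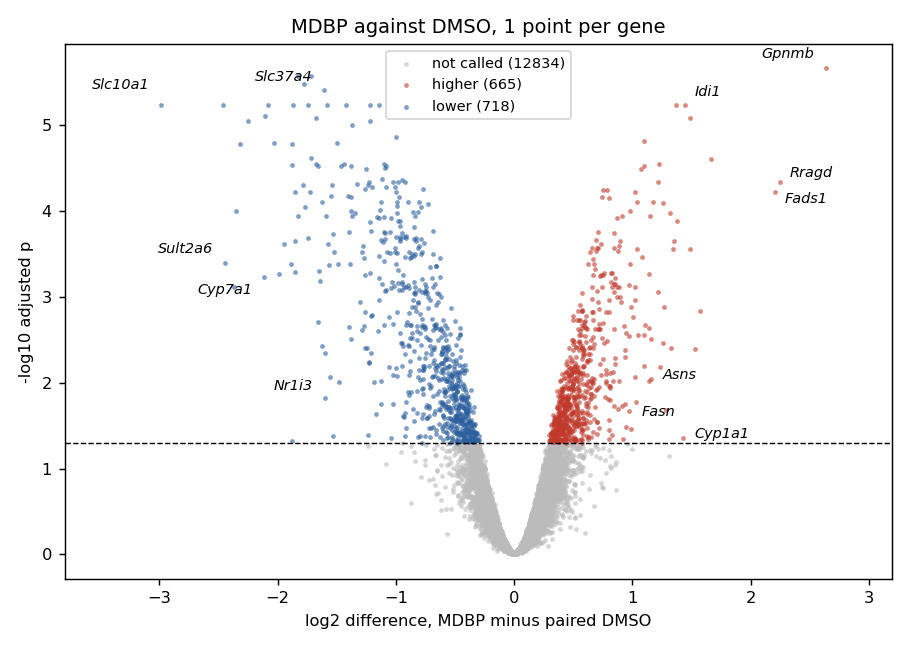
Each point is a gene; the horizontal axis is the log2 difference, MDBP minus paired DMSO, and the vertical axis the negative log10 of the limma adjusted p. The dashed line marks an adjusted p of 0.05, above which 665 genes lie higher and 718 lower, with Gpnmb at the far right and Slc10a1 at the far left.

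In the controls of pairs 1, 2 and 3, Gpnmb read 7.50, 6.61 and 6.74, and with MDBP it read 9.62, 9.59 and 9.55. The treated arrays lay close together and above every control, and the rise was 2.64 ± 0.17 (SE, n = 3 pairs; 6.23-fold; limma adjusted p = 2.19e-06). Here and below the SE is that of the limma fit, which pools the scatter of all 12 pairs of the 4 drugs. It is not the spread of the 3 MDBP pairs alone. Rragd read 3.78, 3.90 and 3.35 in the controls and 6.07, 5.83 and 5.86 with MDBP, again without overlap, a rise of 2.25 ± 0.24 (limma adjusted p = 4.58e-05). Fads1 read 4.58, 4.48 and 6.58 in the controls and 7.16, 6.75 and 8.35 with MDBP. Pair 3 stood above the other pairs in both states, and the rise was 2.21 ± 0.25 (limma adjusted p = 6.08e-05). Uap1l1, a relative of the enzyme that makes UDP-N-acetylglucosamine, rose by 1.67 ± 0.17 from control levels of 5.28, 5.03 and 5.05. Ndrg1, a gene known to respond to hypoxia and stress, rose by 1.57 ± 0.26, although its ranges overlapped, since the first control (8.62) lay above the third treated array (8.19). Csrp3, a LIM protein best known from muscle, rose by 1.53 ± 0.29, but without pair 2 its adjusted p was 0.0787. Ly96, the MD-2 partner of the endotoxin receptor TLR4, rose by 1.38 ± 0.17 and Rab30, a Golgi GTPase, by 1.37 ± 0.12, each with all 3 treated arrays above all controls.

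Slc10a1 read 9.71, 10.81 and 10.76 in the controls and 6.69, 7.20 and 8.44 with MDBP. No treated array reached a control, and the change was -2.98 ± 0.24 (SE, n = 3 pairs; 7.91-fold lower; limma adjusted p = 5.83e-06). Sult2a6, a sulfotransferase of the family that conjugates bile acids and steroids, changed by -2.44 ± 0.35, Bhmt, which remethylates homocysteine with betaine, by -2.35 ± 0.28 and its relative Bhmt2 by -2.11 ± 0.18. Fbxl17l1, an F-box protein gene, changed by -2.46 ± 0.20, with controls of 8.73, 9.59 and 9.25 and treated arrays of 5.97, 7.25 and 6.96. Ttc36, a tetratricopeptide repeat protein of liver and kidney, changed by -2.25 ± 0.20. Acsm5, a mitochondrial medium-chain acyl-CoA synthetase, changed by -2.08 ± 0.17 and Urad, of uric acid breakdown, by -1.99 ± 0.29. Among these, Fbxl17l1, Acsm5 and Bhmt2 had no overlap between treated and control arrays, while for Sult2a6, Bhmt, Ttc36 and Urad the treated array of pair 3 exceeded the control of pair 1. All of the genes in this paragraph kept an adjusted p under 0.05 without each pair in turn.

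**Figure D2:**
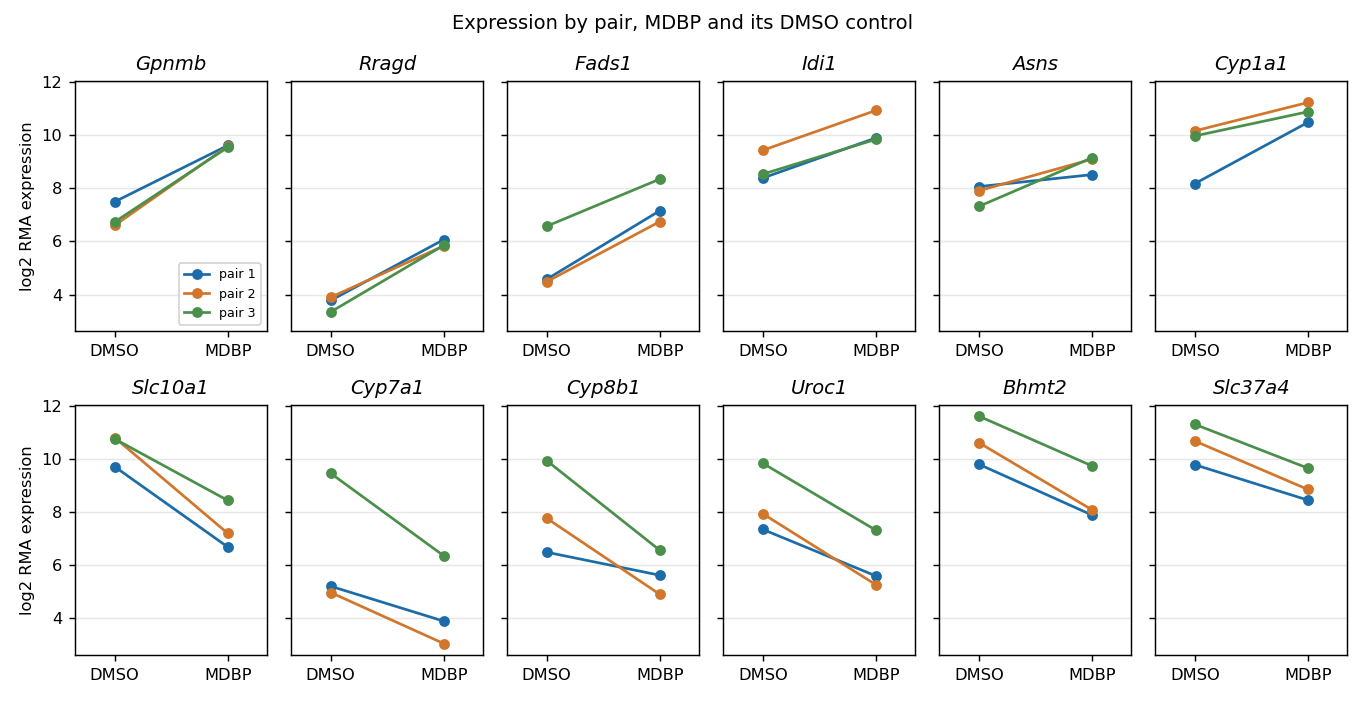
Log2 RMA expression of 12 genes in each DMSO control and its MDBP partner, 1 line per pair, on a shared vertical axis. Lines of Gpnmb, Rragd, Fads1, Idi1, Asns and Cyp1a1 go up and those of Slc10a1, Cyp7a1, Cyp8b1, Uroc1, Bhmt2 and Slc37a4 go down in all 3 pairs, from starting levels that can differ widely, as for Cyp7a1 (5.21, 4.97 and 9.46).

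Over all genes, the ranges of the 3 treated and the 3 control arrays did not overlap for 1970 of 14217 genes (13.9%), where 4.68% were called higher and 5.05% lower. Among genes called higher it was 410 of 665 (61.7%), and among genes called lower 261 of 718 (36.4%). Most lower genes thus overlapped in level, and their call rests on the comparison within pairs.

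Enzymes of cholesterol synthesis formed the gene group with the most general rise. Of 17 measured members 12 rose and none fell, against 4.68% of all genes higher, and the list median was 0.67, at 0.74, 0.81 and 0.64 in pairs 1, 2 and 3. The list was chosen knowing that the study reported on this pathway, so its count is not independent evidence. The lists below were also chosen with earlier results of these data known, and the same limit holds for their counts. Idi1, the isomerase that makes the active isoprene unit, read 8.39, 9.44 and 8.54 in the controls and 9.90, 10.94 and 9.85 with MDBP. All treated arrays lay above all controls, and the rise was 1.44 ± 0.12 (SE, n = 3 pairs; 2.72-fold; limma adjusted p = 5.83e-06). Msmo1, a sterol methyl oxidase late in the pathway, read 8.58, 9.64 and 9.59 in the controls and 10.13, 11.24 and 10.91 with MDBP, a rise of 1.49 ± 0.13. Acat2, the thiolase at the entry of the pathway, rose by 1.49 ± 0.20, Sqle, the squalene epoxidase, by 1.23 ± 0.12, and Cyp51, the lanosterol demethylase, by 1.21 ± 0.13. These 5 passed without each pair in turn, and the count of members that rose was 8, 8 and 9 without pairs 1, 2 and 3. The 5 members that did not pass were Mvd at 0.52, Mvk at 0.44, Tm7sf2 at 0.36, Dhcr7 at 0.15 and Ebp at 0.08, and in Dhcr7 and Ebp pair 3 went down.

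Promoters of genes of this pathway are shown because they move together and because CCAAT boxes, bound by NF-Y, are textbook partners of SREBP sites. The sequences are the 250 bases before the gene start in RefSeq (build GRCr8), 5′ to 3′ on the gene's strand, with CCAAT boxes in capitals, which read ATTGG where the box lies on the other strand. Idi1 held 2, Msmo1 3 and Insig1, a gene of the sterol regulation list, 1. Cyp51, whose promoter is not shown, held 0.
Idi1, chr17:66547525-66547774, minus strand: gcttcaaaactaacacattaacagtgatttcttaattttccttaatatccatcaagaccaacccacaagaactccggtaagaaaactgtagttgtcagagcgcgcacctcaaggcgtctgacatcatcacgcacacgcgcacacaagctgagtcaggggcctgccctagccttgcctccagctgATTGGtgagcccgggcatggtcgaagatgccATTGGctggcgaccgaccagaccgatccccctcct
Msmo1, chr16:29746863-29747112, plus strand: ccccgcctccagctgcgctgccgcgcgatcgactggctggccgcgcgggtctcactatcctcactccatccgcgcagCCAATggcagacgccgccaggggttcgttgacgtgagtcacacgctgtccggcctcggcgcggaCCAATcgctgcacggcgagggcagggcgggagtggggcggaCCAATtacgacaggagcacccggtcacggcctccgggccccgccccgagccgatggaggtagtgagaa
Insig1, chr4:8057770-8058019, minus strand: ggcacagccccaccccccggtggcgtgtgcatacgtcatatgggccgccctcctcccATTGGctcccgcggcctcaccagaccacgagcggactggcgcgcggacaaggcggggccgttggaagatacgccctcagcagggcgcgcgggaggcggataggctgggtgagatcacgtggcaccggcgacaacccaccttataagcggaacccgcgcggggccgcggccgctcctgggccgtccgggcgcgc
CCAAT was found in 11 of the 14 cholesterol synthesis genes with a promoter in the table (78.6%), against 34.3% of all 27456 promoters and 35.1% of the 11733 measured genes that had one. The share differed much between lists, up to 94.7% for ER chaperones, a list in which no member rose. The letters CACCCCAC, a core of one sterol element, were in 1 of the 14 (7.14%) against 2.24% of all promoters. A match is a description of the letters and not evidence of binding.

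Genes that sense, move or store sterol went both ways, with 4 of 15 higher and 3 lower (46.7% called, against 9.73% of all genes). Their median was 0.00. Insig1, which holds the SREBP complex back and is itself an SREBP target, had nearly equal controls of 10.46, 10.56 and 10.44 and read 11.32, 11.85 and 11.79 with MDBP. Every treated array was above every control, and the rise was 1.17 ± 0.14 (SE, n = 3 pairs; limma adjusted p = 7.89e-05). Stard4, a soluble sterol carrier, rose by 1.04 ± 0.14, Npc2, which passes cholesterol out of lysosomes, by 0.79 ± 0.09, and Soat1, which esterifies cholesterol, by 0.85 ± 0.17. Soat1 did not pass without pair 3 (adjusted p = 0.0853). Lcat, the enzyme that esterifies cholesterol in plasma lipoproteins, changed by -1.13 ± 0.14, and Abcg5 and Abcg8, which together pump sterols into bile, by -0.87 ± 0.16 and -0.48 ± 0.13. Abcg8 did not pass without pair 2 (adjusted p = 0.214) or pair 3 (0.218). Srebf2, the factor that drives cholesterol genes, stood at 0.22 ± 0.15 (limma adjusted p = 0.451). Its relative Srebf1 rose by 0.72 ± 0.12 (limma adjusted p = 0.0021) and was called without each pair (0.0269, 0.01 and 0.0187).

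Fatty acid and triglyceride synthesis had 8 of 26 members higher and 2 lower (38.5% called, against 9.73% of all genes). Its median was 0.20. Besides Fads1, Pnpla3, a lipase of lipid droplets that SREBP-1c induces, rose by 1.10 ± 0.20 and Acsl3, an acyl-CoA synthetase of lipid droplets, by 1.00 ± 0.17 (SE, n = 3 pairs). Fasn, the fatty acid synthase, read 6.93, 7.20 and 7.58 in the controls and 7.81, 8.46 and 8.38 with MDBP. Its arrays did not overlap, yet the rise of 0.98 ± 0.24 (limma adjusted p = 0.0215) was not called without pair 1, 2 or 3 (adjusted p = 0.0672, 0.168 and 0.0797). The lower members were Elovl2, an elongase of polyunsaturated fatty acids, at -0.87 ± 0.12, and Lpin2, a phosphatidate phosphatase, at -0.69 ± 0.15. Lpin2 was not called without pair 2 (adjusted p = 0.101) or pair 3 (0.111), and without either the list had 1 lower member. The list, too, was chosen knowing the study.

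Fatty acid oxidation and PPAR alpha targets moved the other way, with 13 of 23 lower and none higher, where 5.05% of all genes were lower. The median was -0.71, at -0.58, -0.60 and -0.92 in pairs 1, 2 and 3, and 13, 12 and 12 members were lower without each of those pairs. Cyp4a1 and Cyp4a3, omega-hydroxylases that PPAR alpha induces in rodents, changed by -1.94 ± 0.26 and -1.66 ± 0.17 (SE, n = 3 pairs). Cyp4a3 read 9.65, 9.76 and 10.79 in the controls and 8.10, 7.98 and 9.13 with MDBP, without overlap. Ehhadh, the bifunctional enzyme of peroxisomal oxidation, changed by -1.40 ± 0.18 and Angptl4, a secreted inhibitor of lipoprotein lipase, by -1.26 ± 0.19. Vnn1, a pantetheinase, changed by -1.10 ± 0.16. Fgf21, a fasting hormone of the liver, stood at 0.60 ± 0.48 (limma adjusted p = 0.562).

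**Figure D3:**
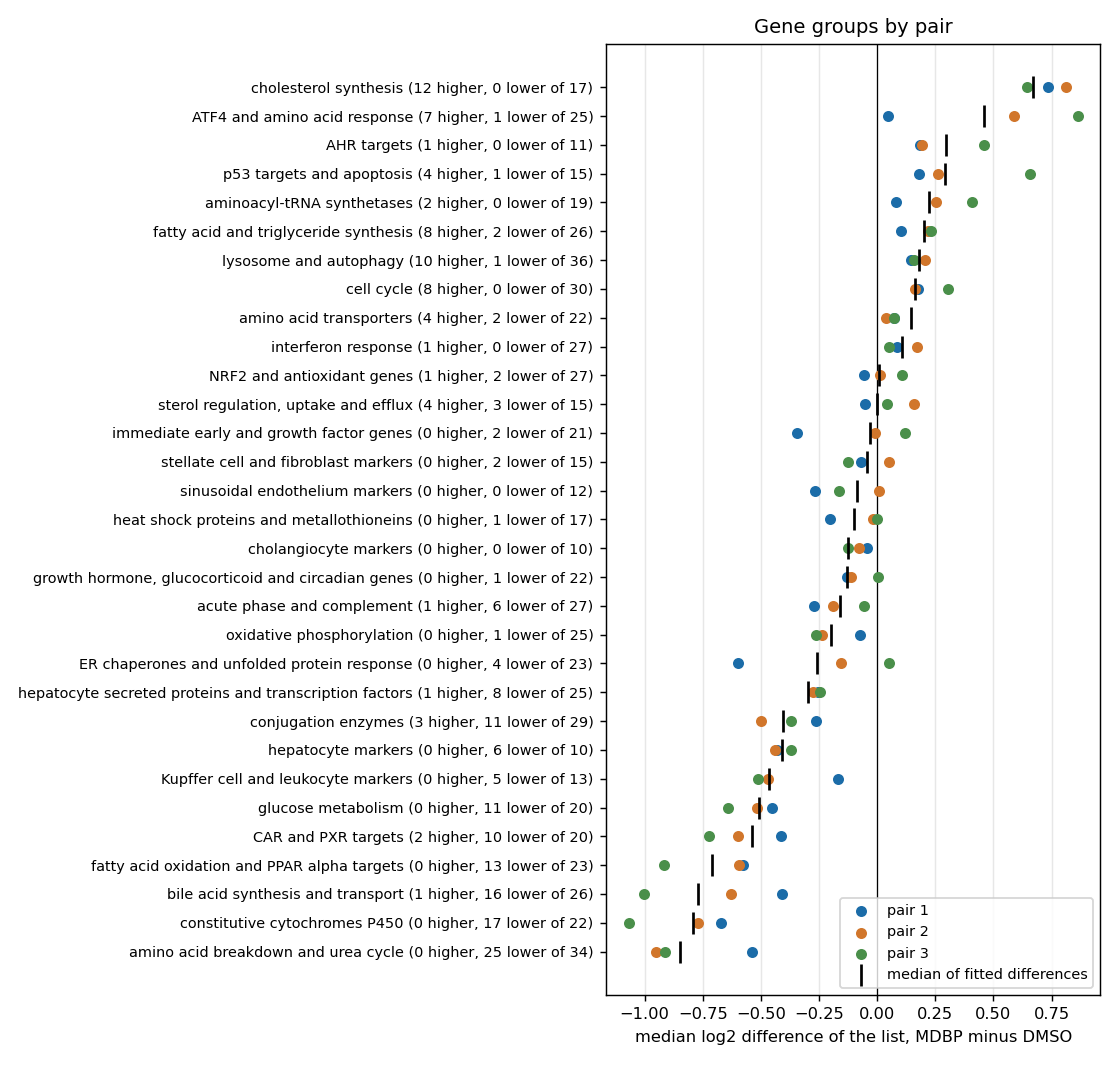
For each gene list, the median log2 difference (MDBP minus DMSO) of its members in pair 1, 2 and 3 (points) and the median of the fitted differences (black bar), with the counts of members called higher and lower. Cholesterol synthesis has the highest median (0.67) and amino acid breakdown and urea cycle the lowest (-0.85); pair 1 stands apart in the ATF4 list (0.05) and the ER chaperone list (-0.60).

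Genes for bile acid synthesis and transport fell, with 16 of 26 lower, where 5.05% of all genes were, and 1 higher. Their median was -0.77. The pair medians were -0.41 in pair 1, -0.63 in pair 2 and lowest in pair 3, and the count of lower members was 10 without pair 3. Among enzymes, Cyp7a1, which controls the rate of bile acid synthesis, read 5.21, 4.97 and 9.46 in the controls and 3.89, 3.05 and 6.35 with MDBP. It was lower in each pair, and the fitted change was -2.12 ± 0.32 (SE, n = 3 pairs; 4.33-fold lower; limma adjusted p = 0.000583), while the treated array of pair 3 stayed above the controls of pairs 1 and 2. Cyp8b1, the hydroxylase needed for cholic acid, read 6.49, 7.77 and 9.94 in the controls and 5.62, 4.90 and 6.56 with MDBP. Its change of -2.37 ± 0.36 was smallest in pair 1. Slc27a5, which joins bile acids to coenzyme A, and Acox2, the oxidase of their side chain, both changed by -1.88 (SE 0.27 and 0.18). Among carriers, Slc10a1 was joined by Abcb11, the bile salt export pump, at -1.72 ± 0.12, with controls of 8.28, 9.63 and 9.44 and treated arrays of 6.72, 7.74 and 7.73. Abcc2, the canalicular pump for conjugates, was the 1 member that rose, by 0.56 ± 0.13, and was not called without pair 1 (adjusted p = 0.111) or pair 3 (0.112).

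Cytochromes P450 that the liver expresses without an inducer fell in 17 of 22 members, against 5.05% of all genes, and none rose. The median was -0.79, at -0.67, -0.77 and -1.07 in pairs 1, 2 and 3, with 14, 12 and 12 members lower without each pair. Cyp2e1, which oxidises ethanol and small solvents, read 12.01, 12.05 and 12.82 in the controls and 10.29, 10.19 and 11.71 with MDBP. All treated arrays lay below all controls, and the change was -1.57 ± 0.23 (SE, n = 3 pairs; 2.97-fold lower; limma adjusted p = 0.000425). Cyp2c11, the male-typical P450 of rat liver, read 7.43, 9.29 and 8.56 in the controls and 5.89, 7.23 and 6.86 with MDBP, a change of -1.77 ± 0.21. Cyp4f4, an omega-hydroxylase of the leukotriene family, changed by -1.85 ± 0.25, Cyp2a1, a testosterone hydroxylase, by -1.59 ± 0.20, and Cyp2c23, an arachidonate epoxygenase, by -1.48 ± 0.32. Cyp2c23 was not called without pair 1 (adjusted p = 0.0872) or pair 3 (0.0924). Cyp4b1 was highest of the list at 0.41 ± 0.13 (limma adjusted p = 0.0798). P450 and sulfotransferase genes have close relatives, and how far their probes tell these apart was not tested.

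Targets of CAR and PXR fell rather than rose, with 10 of 20 lower and 2 higher, against 5.05% and 4.68% of all genes. Their median was -0.54. The count of lower members was 6 without pair 2. Nr1i3, which encodes CAR itself, read 4.06, 5.09 and 7.48 in the controls and 3.41, 3.61 and 4.81 with MDBP. Its change of -1.60 ± 0.37 (SE, n = 3 pairs; limma adjusted p = 0.0152) was largest in pair 3, where the control was highest, and was not called without pair 2 (adjusted p = 0.0776) or pair 3 (0.222). Aldh1a1, which makes retinoic acid, changed by -1.74 ± 0.14, Cyp3a18 by -1.57 ± 0.21 and Cyp2b3 by -1.14 ± 0.17. Cyp3a2, a main P450 of male rats, had controls as far apart as 6.01, 8.50 and 10.99. Its change of -1.17 ± 0.29 was not called without pair 3 (adjusted p = 0.305). The 2 higher members were Gadd45b, a stress gene that CAR activates, at 0.64 ± 0.12, and Abcc2. Gadd45b was not called without pair 2 (adjusted p = 0.0558) or pair 3 (0.0601), and the list had 1, 1 and 0 higher members without pairs 1, 2 and 3.

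Of 11 AHR targets 1 was higher (9.09%, where 4.68% of all genes were), namely Cyp1a1, the P450 that AHR ligands induce most strongly. With array weights 4 members were higher, and without pair 1, 2 or 3 none was. It read 8.18, 10.17 and 9.98 in the controls and 10.49, 11.24 and 10.89 with MDBP. The treated arrays lay above all controls, and the rise was 1.43 ± 0.40 (SE, n = 3 pairs; 2.69-fold; limma adjusted p = 0.0437), largest in pair 1, where the control was lowest. Without pairs 1, 2 and 3 its adjusted p was 0.275, 0.114 and 0.095. Cyp1a2, the other hepatic AHR target of this family, stood at 0.16 ± 0.20 (limma adjusted p = 0.741), Tiparp, a feedback inhibitor of AHR, at 0.42 ± 0.12 (0.0566) and Nqo1, a quinone reductase, at 0.37 ± 0.12 (0.0858).

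Conjugation enzymes had 11 of 29 members lower and 3 higher, against 5.05% and 4.68% of all genes, with a median of -0.41. Glyat, which joins glycine to benzoate and related acids, changed by -1.83 ± 0.22, Gsta3, a glutathione transferase, by -1.52 ± 0.21, and Sult1a1, the phenol sulfotransferase, by -1.16 ± 0.14 (SE, n = 3 pairs). Sult1a1 read 12.07, 12.41 and 12.67 in the controls and 10.76, 11.25 and 11.68 with MDBP, without overlap. Sult1e1, the estrogen sulfotransferase, changed by -0.93 ± 0.26 and was not called without any of the 3 pairs (adjusted p = 0.055, 0.0752 and 0.429). The higher members were Gstk1 at 0.80 ± 0.21, Sult1c2 at 0.72 ± 0.13 and Gstp1 at 0.69 ± 0.17. Sult1c2 was weak, at 2.74, 2.81 and 2.56 in the controls and 3.01, 3.65 and 3.61 with MDBP, below the median of each array. Gstk1 and Gstp1 were not called without pair 1 (adjusted p = 0.159 and 0.0911) or pair 2 (0.156 and 0.162), nor Sult1c2 without pair 3 (0.0526). The list had 6 lower members without pair 2 and 7 without pair 3, with 1, 1 and 2 higher members without pairs 1, 2 and 3.

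Enzymes that break down amino acids and make urea fell in 25 of 34 members, against 5.05% of all genes, and rose in none. Just 2 of these members lay below the median level of all genes, while that share also counts weakly expressed genes. Of the 34, 32 were lower in all 3 pairs, as were 2897 of all 14217 genes. The median was -0.85, at -0.54, -0.95 and -0.91 in pairs 1, 2 and 3, and 22, 18 and 17 members were lower without each pair. Uroc1, the urocanase of histidine breakdown, read 7.35, 7.94 and 9.84 in the controls and 5.60, 5.26 and 7.32 with MDBP. The treated arrays lay below all controls, and the change was -2.32 ± 0.22 (SE, n = 3 pairs; 4.98-fold lower; limma adjusted p = 1.67e-05). Ftcd, a later, folate-linked step of the same route, changed by -1.88 ± 0.19. Aass, the enzyme that opens lysine breakdown, changed by -2.03 ± 0.19, from 8.75, 9.80 and 10.30 to 6.79, 7.33 and 8.65. Otc, the ornithine transcarbamylase of the urea cycle, changed by -1.85 ± 0.27. Cps1, the entry enzyme of that cycle, stood at -0.37 ± 0.11 (limma adjusted p = 0.0687).

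Glucose metabolism had 11 of 20 members lower, where 5.05% of all genes were, and none higher. Its median was -0.51, and 7 members were lower without pair 3. Slc37a4, which carries glucose 6-phosphate into the endoplasmic reticulum for glucose release, read 9.79, 10.68 and 11.31 in the controls and 8.45, 8.86 and 9.66 with MDBP. No treated array reached a control, and the change was -1.60 ± 0.12 (SE, n = 3 pairs; 3.04-fold lower; limma adjusted p = 3.89e-06). Fbp1, a gluconeogenic phosphatase, changed by -1.72 ± 0.17, Gys2, the liver glycogen synthase, by -1.65 ± 0.24, and Tkfc, which phosphorylates triose and dihydroxyacetone, by -1.29 ± 0.18. Gckr, which restrains glucokinase in the nucleus, changed by -1.29 ± 0.23 and was not called without pair 3 (adjusted p = 0.0526).

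Secreted liver proteins and liver transcription factors changed less, with 8 of 25 lower and 1 higher (36% called, against 9.73% of all genes). Their median was -0.30. Apoa2, an HDL protein, changed by -1.23 ± 0.13 (SE, n = 3 pairs), and Apob, the core protein of VLDL, was 2.01-fold lower (limma adjusted p = 5.25e-05). Apob read 11.74, 12.26 and 11.24 in the controls and 10.55, 11.19 and 10.48 with MDBP, without overlap. F9, clotting factor IX, changed by -0.60 ± 0.11 and Serpinc1, antithrombin, by -0.60 ± 0.12. Hnf4a, a factor central to hepatocyte identity, changed by -0.45 ± 0.10 (limma adjusted p = 0.011). Ahsg, fetuin-A, rose by 0.50 ± 0.11. Calls were lost for Ahsg without pair 1 (adjusted p = 0.081) and pair 3 (0.12), for Serpinc1 without pair 1 (0.0654) and pair 2 (0.0911), and for Hnf4a without pair 2 (0.121) and pair 3 (0.0674). The list had 5 and 4 lower members without pairs 1 and 2, and 0 higher members without pair 1 or 3.

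Genes of the ATF4 and amino acid response rose in part, with 7 of 25 higher, where 4.68% of all genes were, 1 lower and a median of 0.46. The pairs differed, with medians of 0.05, 0.59 and 0.86 in pairs 1, 2 and 3. Mthfd2, of mitochondrial folate metabolism, read 5.96, 6.22 and 5.04 in the controls and 6.61, 7.58 and 7.02 with MDBP, a rise of 1.33 ± 0.25 (SE, n = 3 pairs; limma adjusted p = 0.00398). Asns, the asparagine synthetase, read 8.07, 7.91 and 7.32 in the controls and 8.52, 9.10 and 9.15 with MDBP. In both genes all treated arrays exceeded all controls, and pair 1 differed least. Psat1 and Phgdh, of serine synthesis, rose by 1.29 ± 0.32 and 1.14 ± 0.25, Asns by 1.16 ± 0.25, and Chac1, which degrades glutathione, by 1.23 ± 0.25. Without pair 3 none of these 5 was called (adjusted p = 0.0788 for Mthfd2, 0.276 for Psat1, 0.116 for Chac1, 0.154 for Asns and 0.164 for Phgdh), and without pair 2 only Mthfd2 was. The list had 10, 1 and 0 higher members without pairs 1, 2 and 3, and 12 with array weights. The lower member, Gpt2, an alanine transaminase, stood at -0.62 ± 0.12 and was not called without pair 3 (adjusted p = 0.0917). Ddit3, the factor CHOP of prolonged stress, stood at 0.58 ± 0.22 (limma adjusted p = 0.147), with a control of 8.05 above the treated 7.93 in pair 1. Without pair 1 it was called at 0.93 (adjusted p = 0.0304), as were Atf3 (0.028) and Aldh18a1 (0.0049).

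The promoter of Chac1 is shown for the element to which ATF4 binds together with a C/EBP partner, searched as TGATGNAA on both strands and found 1 time, in capitals on the complementary strand, in the 250 bases before the start (RefSeq, GRCr8).
Chac1, chr3:126795881-126796130, plus strand: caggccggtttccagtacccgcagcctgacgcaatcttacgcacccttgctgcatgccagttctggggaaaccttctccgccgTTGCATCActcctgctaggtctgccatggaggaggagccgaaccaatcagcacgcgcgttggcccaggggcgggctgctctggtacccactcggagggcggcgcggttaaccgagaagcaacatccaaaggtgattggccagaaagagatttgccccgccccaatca
The element was found in 4 of 23 ATF4 list members with a promoter (17.4%), in 1 of the 7 that rose (14.3%), and in 3.27% of all promoters.

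**Figure D4:**
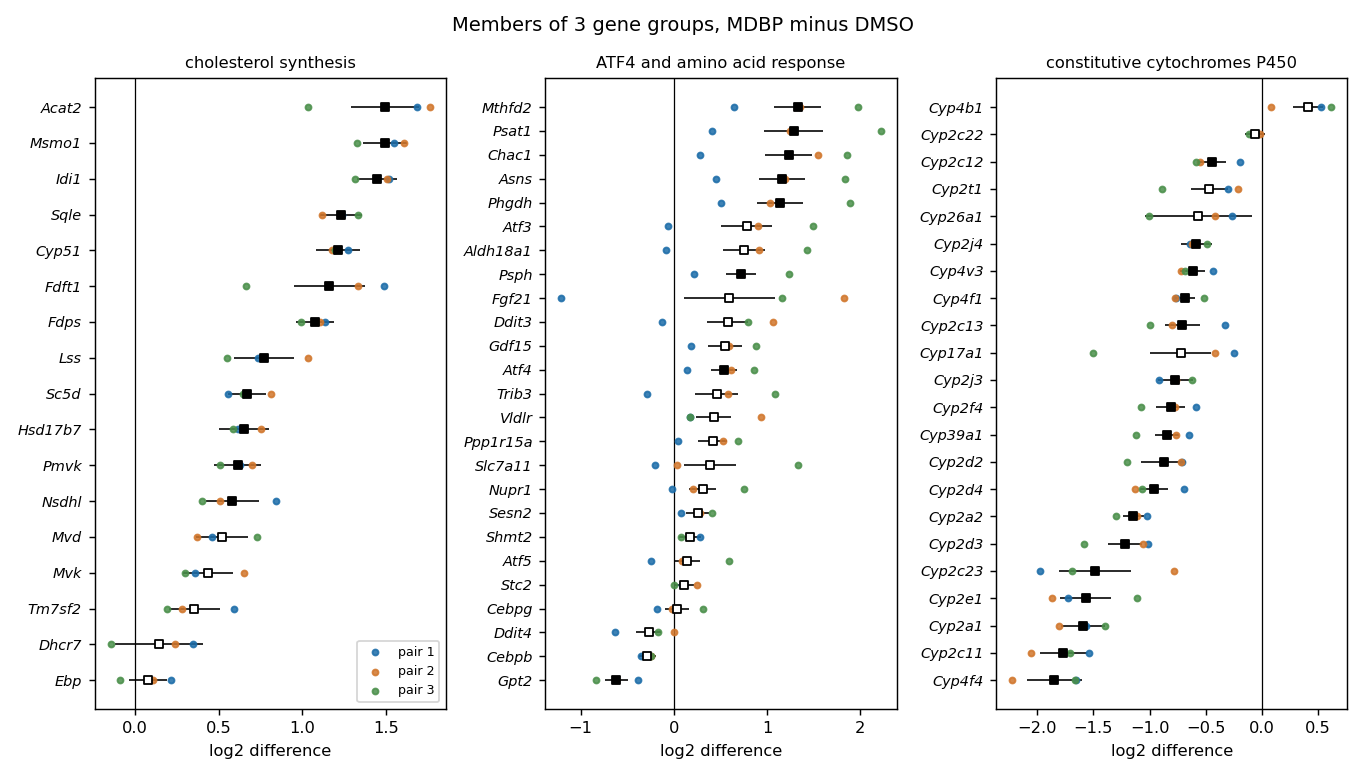
Log2 differences (MDBP minus DMSO) of all members of 3 lists: points are pairs 1, 2 and 3, squares the fitted difference with its SE, filled where the limma adjusted p is under 0.05. All 12 filled squares of cholesterol synthesis lie right of 0; in the ATF4 list pair 1 lies left of pair 3 for Mthfd2, Psat1, Chac1, Asns and Phgdh; 17 of 22 cytochromes P450 are filled on the left.

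Of 22 amino acid transporters 4 were higher and 2 lower, so that 27.3% were called against 9.73% of all genes, led by Slc6a6, the taurine carrier, at 1.10 ± 0.22 and Slc1a4, a carrier of neutral amino acids, at 0.80 ± 0.18 (SE, n = 3 pairs). Slc38a7, of lysosomal glutamine export, rose by 0.66 ± 0.18 and Slc3a2, the shared heavy chain of several carriers, by 0.48 ± 0.12. The higher count was 7 with array weights and 6, 1 and 0 without pairs 1, 2 and 3: Slc6a6 and Slc38a7 were not called without pair 2 (adjusted p = 0.104 and 0.196) or pair 3 (0.0878 and 0.272), nor Slc3a2 (0.0517 and 0.257), nor Slc1a4 without pair 3 (0.182). Slc16a10, which carries aromatic amino acids, changed by -0.53 ± 0.14 and Slc38a3, a glutamine carrier, by -0.44 ± 0.11, and neither was called without any of the 3 pairs (adjusted p from 0.0615 to 0.243). Of 19 aminoacyl-tRNA synthetases 2 were called, both higher, where 4.68% of all genes were higher and 9.73% were called in either direction. The list median was 0.22 and the lowest member stood at 0.02, so all 19 fitted differences lay above 0. In all 3 pairs 11 members were up and 0 down, against 3676 and 2897 of all 14217 genes. Sars1 rose by 0.58 ± 0.13 and Wars1 by 0.51 ± 0.15, and neither was called without pair 2 (adjusted p = 0.0959 and 0.22) or pair 3 (0.186 and 0.37).

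Of 23 chaperones and stress sensors of the endoplasmic reticulum 4 were lower, where 5.05% of all genes were, and none was called higher, with a median of -0.26 that ran from -0.60 in pair 1 to 0.05 in pair 3. Calr, calreticulin, changed by -0.49 ± 0.13, Sdf2l1 by -0.48 ± 0.12, Edem1, which helps to discard misfolded glycoproteins, by -0.37 ± 0.10, and Sel1l, its partner in degradation, by -0.34 ± 0.10 (SE, n = 3 pairs). On the MDBP arrays alone 1 member was lower. Without pairs 1 and 2 none of the 4 was called (adjusted p from 0.0902 to 0.285), and without pair 3 Calr was called (0.0343), as was Pdia3, a disulfide isomerase (0.0331), but Sdf2l1 (0.0653), Edem1 (0.091) and Sel1l (0.163) were not. Without pair 1 the list median was -0.06 and Eif2ak3, the stress sensor PERK, was called higher (0.69; adjusted p = 0.0357), against 0.39 ± 0.17 with all pairs (0.219). Hspa5, the main chaperone there, stood at -0.26 ± 0.17 (limma adjusted p = 0.44).

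Lysosome and autophagy genes formed a list that holds Gpnmb and Rragd. It had 10 of 36 members higher and 1 lower (30.6% called, against 9.73% of all genes), with a median of 0.18. Flcn, which acts on Rragc and Rragd at the lysosome, read 8.67, 7.94 and 8.09 in the controls and 9.34, 8.84 and 9.08 with MDBP. Its rise was 0.85 ± 0.13 (SE, n = 3 pairs; limma adjusted p = 0.000599), with no overlap. Cd63, a tetraspanin of late endosomes, rose by 0.71 ± 0.09 and Rragc by 0.53 ± 0.11. Rragc was not called without pair 2 (adjusted p = 0.0745) or pair 3 (0.0576). The lower member, Psap, the precursor of saposins, changed by -0.37 ± 0.10 and was not called without any of the 3 pairs (adjusted p = 0.0736, 0.134 and 0.286). The list had 4 higher members without pair 2 and 5 without pair 3, 7 higher and 2 lower after a further quantile normalization, and 15 higher and 3 lower with array weights. The CLEAR-type E-box, searched as TCACGTGA, was in 3 of 29 list members with a promoter (10.3%) and in 0.743% of all promoters, but in none of the 6 higher members that had one.

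Cell cycle genes had 8 of 30 members higher, where 4.68% of all genes were, and none lower, with a median of 0.16, and 25 of the 30 lay below the median of all genes in level. Mcm4 and Mcm6, of the replicative helicase, rose by 0.85 ± 0.13 and 0.56 ± 0.12, Tyms, which makes thymidylate, by 0.62 ± 0.13, Aurka, a mitotic kinase, by 0.56 ± 0.16, and Cdk2 by 0.44 ± 0.11 (SE, n = 3 pairs). Mki67, the common marker of cycling cells, stood at 0.10 ± 0.10 (limma adjusted p = 0.655). It read 2.3, 2.1 and 2.2 in the controls and 2.4, 2.2 and 2.2 with MDBP. These levels are far below the median of each array, so a change in it could have been missed. The list had 4, 5 and 1 higher members without pairs 1, 2 and 3, and 5 on the MDBP arrays alone. Of these genes only Mcm4 passed without each pair: Mcm6 was not called without pair 3 (adjusted p = 0.0962), Tyms and Cdk2 without pair 1 (0.055 and 0.0594) or pair 3 (0.0993 and 0.241), and Aurka without any (0.124, 0.161 and 0.239).

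Of 15 targets of p53, 4 were higher and 1 lower (33.3% called, against 9.73% of all genes), with a median of 0.29. On the MDBP arrays alone 2 were higher, and with array weights 2 were lower. Mdm2, the ubiquitin ligase of p53, rose by 0.70 ± 0.11, with controls of 9.69, 9.38 and 8.93 and treated arrays of 10.35, 9.90 and 9.86 (SE, n = 3 pairs; limma adjusted p = 0.000865). It was the member that passed without each pair. Bbc3, the pro-apoptotic PUMA, rose by 0.61 ± 0.14, Phlda3 by 0.56 ± 0.14 and Aen, a nuclease of apoptosis, by 0.51 ± 0.14. Bbc3 and Aen were not called without pair 2 (adjusted p = 0.0565 and 0.0649) or pair 3 (0.255 and 0.464), and Phlda3 not without any (0.0547, 0.0997 and 0.187), so 1 member was higher without pair 2 and 1 without pair 3. Sesn1 changed by -0.49 ± 0.12 and was not called without any pair (adjusted p = 0.0794, 0.0967 and 0.0741). Cdkn1a, the p53-driven inhibitor of the cell cycle, stood at 0.07 ± 0.10 (limma adjusted p = 0.79).

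In several lists the share of called members was near or below the 9.73% of all genes. Of 27 NRF2 and antioxidant genes 3 were called (11.1%): Tkt, the transketolase, rose by 0.58 ± 0.11, Akr7a3 changed by -0.61 ± 0.12 and Gclc, of glutathione synthesis, by -0.36 ± 0.10, while Hmox1, heme oxygenase, stood at 0.14 ± 0.16 (limma adjusted p = 0.71). Akr7a3 was not called without pair 2 (adjusted p = 0.089), nor Gclc without any (0.0575, 0.273 and 0.215). A single member each was called among 17 heat shock proteins and metallothioneins (5.88%), 25 genes of oxidative phosphorylation (4%) and 22 growth hormone, glucocorticoid and circadian genes (4.55%). They were Mt2A, at -0.30 ± 0.09, Ndufs3, at -0.39 ± 0.11 (3 of its list were lower without pair 1, and 5 with array weights), and Bmal1, at -0.31 ± 0.09 (4 of its list were lower with array weights). None of these 3 was called without pair 2 or pair 3 (adjusted p from 0.122 to 0.345), nor Mt2A and Bmal1 without pair 1 (0.163 and 0.151). The oxidative phosphorylation list had a median of -0.20. In all 3 pairs 16 of its 25 members were down and 0 up, against 2897 and 3676 of all 14217 genes. Of 21 immediate early genes 2 were called (9.52%). Ccn2 changed by -0.78 ± 0.23 and Jun by -0.49 ± 0.12. Ccn2 was not called without any pair (adjusted p = 0.0957, 0.163 and 0.304), nor Jun without pair 1 (0.187) or pair 2 (0.131). Acute phase and complement genes stood above that share, with 7 of 27 called (25.9%). Of these, 6 were lower, where 5.05% of all genes were, among them Mbl2, a lectin of complement, at -1.20 ± 0.20 and C1s at -0.95 ± 0.14, and 1 was higher, Hamp, the iron hormone hepcidin, at 0.94 ± 0.25. Hamp was called without pair 2 (adjusted p = 0.00432) but not without pair 1 (0.21) or pair 3 (0.297), and 2 members were lower without pair 2, where C5 and Crp had adjusted p = 0.0672 and 0.121. Of 27 interferon-response genes 1 was higher (3.7%), below the share over all genes. Ifit3 rose by 0.99 ± 0.27 and was not called without pair 2 (adjusted p = 0.249) or pair 3 (0.19), while 4 members were higher on the MDBP arrays alone and 3 with array weights.

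Markers of other liver cells were measured alongside. In bulk RNA, fewer cells of a type and less RNA per cell cannot be told apart. Of 13 Kupffer cell and leukocyte markers 5 were lower, where 5.05% of all genes were, and none higher. Their median was -0.47, with 9 members below the median level of all genes. The 5 lower markers were Cd5l at -0.72 ± 0.15, Cd14 at -0.57 ± 0.16, Clec4f at -0.57 ± 0.16, C1qc at -0.55 ± 0.13 and Csf1r at -0.49 ± 0.13 (SE, n = 3 pairs). None of the 5 was called without pair 2 (adjusted p from 0.0955 to 0.248) or pair 3 (0.0847 to 0.384), nor Csf1r without pair 1 (0.0521). Cd68, a lysosomal protein of macrophages, went the other way in all 3 pairs, from 5.17, 5.61 and 5.37 to 5.77, 6.48 and 5.39. Its difference was 0.50 ± 0.16 (limma adjusted p = 0.0789), and without pair 3 it was called higher (0.0323). Summed on the linear scale, these markers reached 1695 to 3420 in the controls and 1557 to 2023 with MDBP. Of 15 stellate cell and fibroblast markers 2 were lower (13.3% called, near the 9.73% of all genes). Col3a1, a collagen, changed by -0.78 ± 0.13 and Pdgfra by -0.41 ± 0.11. Pdgfra was not called without pair 2 (limma adjusted p = 0.224) or pair 3 (0.294). Sums of this list were 662.3 to 1029 in the controls and 617.5 to 1037 with MDBP. No marker of sinusoidal endothelium (12 measured; sums of 378.7 to 883.4 and 350.6 to 805.7) or of cholangiocytes (10 measured; 341.8 to 564.8 and 333.6 to 569.7) passed the limma test. Of the 10 hepatocyte markers 6 were lower, where 5.05% of all genes were, with a median of -0.41 and 3 lower without pair 3. Asgr1, the asialoglycoprotein receptor, changed by -0.78 ± 0.12. The part of these shifts in the other results was not tested.

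RNA quality was read from control probe sets at the 3′ and 5′ ends of actin. That difference was 2.97, 2.60 and 2.40 in the controls and 2.78, 2.40 and 2.41 with MDBP, so in pairs 1 and 2 the treated array was lower and in pair 3 nearly equal. For GAPDH it was 0.53, 0.40 and 0.44 in the controls and 0.65, 0.26 and 0.29 with MDBP. Its part in the results was not tested.

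BZP lacks the methylenedioxy group of MDBP and was given at 625 µM, while MDBP was given at 467 µM, so the doses differ and values are set side by side. Gpnmb rose by 2.64 with MDBP and 2.68 with BZP, Slc10a1 changed by -2.98 and -2.86, Idi1 by 1.44 and 1.67, and Asns by 1.16 and 0.98. In the limma contrast of both drug terms 0 of 14217 genes (0%) differed at an adjusted p under 0.05, with 462 genes (3.25%) at an unadjusted p under 0.05 and a smallest adjusted p of 0.9997. That fit treats the pairs of both drugs as unrelated, but same-numbered replicates of MDBP and BZP moved together: deviations of their responses correlated at 0.378, 0.153 and 0.386, and their controls at 0.9956, 0.9915 and 0.9943. With the replicate number as a block for these drugs, 0 probe sets differed over all 24 arrays in limma (729 genes at an unadjusted p under 0.05; smallest adjusted p = 0.844), and 2 differed on their arrays alone. Both belong to interferon-response genes. Isg15, a ubiquitin-like protein, differed from its controls by -0.23, 0.39 and 0.05 with MDBP and, with BZP, by -0.85 and -1.46 in pairs 2 and 3 and most in pair 1 (limma adjusted p of the difference = 0.00366 on their arrays alone, and 0.909 over 24 arrays with the block, where its 95% interval ran from 0.70 to 2.31). Mx2, an antiviral GTPase, differed by -0.09, -0.52 and 0.20 with MDBP and by -1.50, -1.92 and -0.85 with BZP, a difference of 1.29 ± 0.15 (limma adjusted p = 0.00823 and 0.912). A p that misses the threshold does not show that both drugs act alike. Without the block the 95% interval of the difference had a median reach of 0.33 to either side, and of the 191 genes that MDBP changed at least 2-fold it lay between -1 and 1 for 159 (178 with the block). For Gpnmb it ran from -0.55 to 0.48, for Slc10a1 from -0.85 to 0.59, for Asns from -0.57 to 0.92 (-0.22 to 0.58 with the block), and for Cyp1a1, at 1.43 with MDBP and 0.86 with BZP, from -0.65 to 1.78 (-0.23 to 1.36). Of those 191 genes, 83 had the larger change with MDBP, although choosing them for a large change with MDBP favours a higher count.

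Responses to TFMPP and MeOPP did not follow that of MDBP by replicate number, as their deviations correlated with it at -0.175 to 0.109. Their same-numbered controls correlated with those of MDBP at 0.9959 and 0.9963 in replicate 1 and 0.9919 and 0.9916 in replicate 2. In replicate 3 it was 0.9783 and 0.9787. No block was used for these drugs. TFMPP and MeOPP carry a phenyl ring directly on the piperazine, with trifluoromethyl and methoxy groups, and were given at 35 and 522 µM. Against the mean of BZP, TFMPP and MeOPP 0 genes (0%) differed, with 553 (3.89%) at an unadjusted p under 0.05 in limma. Against TFMPP alone, 0 genes passed the adjusted threshold in limma (smallest adjusted p = 0.29), while 1009 genes (7.1%) had an unadjusted p under 0.05. Of the 191 genes changed at least 2-fold by MDBP, 178 had the smaller change with TFMPP. These 191 were chosen for a large change with MDBP, which favours that direction. Slc10a1 stood at -1.64 with TFMPP, and the difference from MDBP was -1.34 with a 95% interval from -2.06 to -0.62. Asns stood at 0.16 with TFMPP, with a difference of 1.00 and an interval from 0.26 to 1.75, whereas Idi1 rose by 1.64 with TFMPP, with an interval of the difference from -0.56 to 0.17. Against MeOPP 0 genes passed in limma (smallest adjusted p = 0.963; 629 genes at an unadjusted p under 0.05). Of the 191 genes, 140 had a larger change with MDBP than with MeOPP, a count that their choice favours too. Slc10a1 stood at -2.71 with MeOPP and the interval of its difference ran from -0.99 to 0.45.

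**Figure D5:**
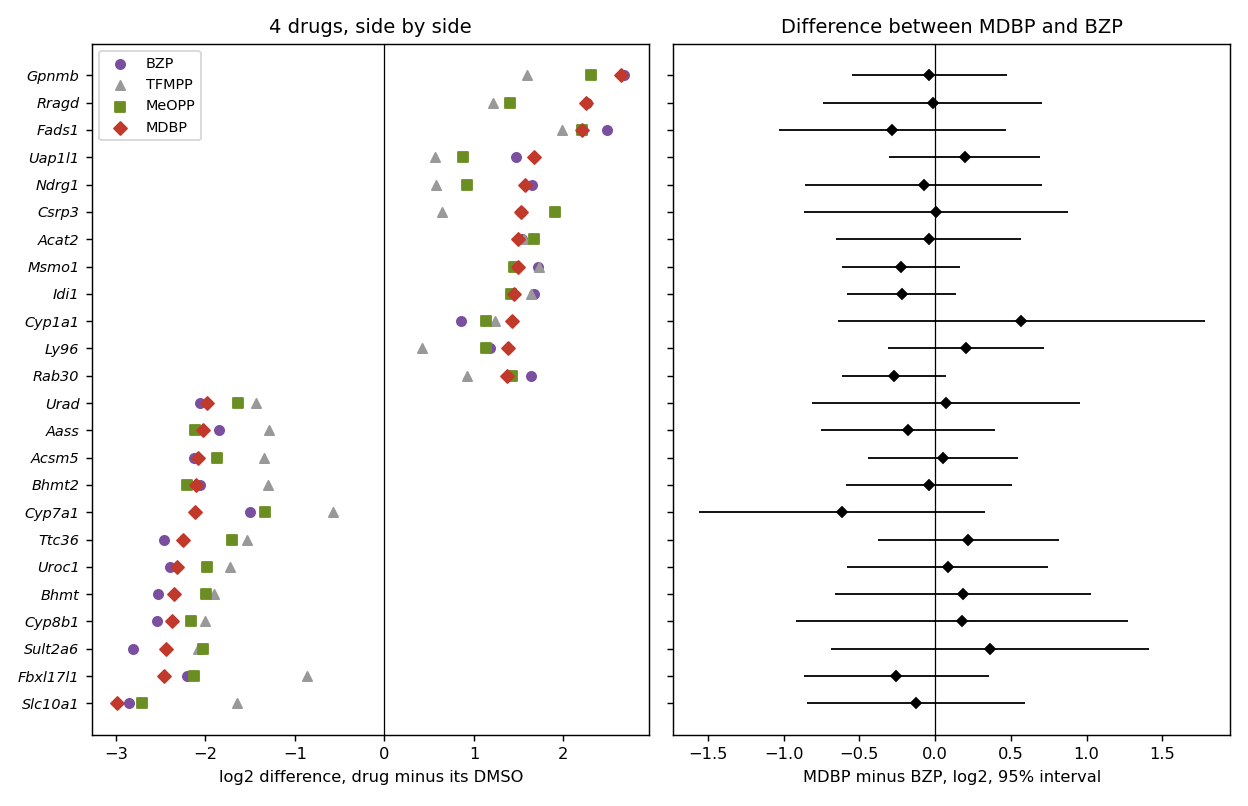
Left, log2 difference of each drug from its own DMSO controls for the 12 largest rises and 12 largest falls of MDBP, with 1 symbol per drug (doses differ). Right, the difference MDBP minus BZP with its 95% interval from limma without the block; all 24 intervals cross 0, the widest being that of Cyp1a1 (-0.65 to 1.78).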

How the data were processed

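The 24 samples were measured on Affymetrix rat arrays, 1 array each. The deposited table holds log2 values after RMA by the authors, per the submitters' processing notes; which software ran it is not stated in the sources used here. With arrays there is no sequencing depth; precision is limited by how many arrays there are. Of the 31042 probe sets that are not array controls, 20826 had 1 gene symbol in the platform annotation, 436 had several and 9780 none. Where a gene had several, the brightest on average was taken, which gave 14217 genes, 4525 of them with several probe sets.

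The differences were fitted with limma 3.58.1 (R 4.3.3) over all 24 arrays, with 12 pair terms, 4 drug terms and Benjamini-Hochberg adjustment over all probe sets; a call is an adjusted p under 0.05. Each SE comes from this fit and pools the scatter of the 12 pairs, so it can differ from the spread of the 3 MDBP pairs. The pairing comes from the titles of the controls. As a check, the deviations of a treated array and its control from the means of their groups were correlated: r lay between 0.612 and 0.802 over the 12 pairs (0.612, 0.72 and 0.762 for MDBP). On simulated data the fit recovered 94% of changed probe sets, and 6% of its calls were false. The changes put in were of at least 2-fold, and the noise was independent between arrays. Among the 2167 called probe sets 255 reached 2-fold, so the 94% does not cover the smaller changes that make up most calls. Tables and figures were made with Python 3.11.15, pandas 2.3.3 and matplotlib 3.10.9.

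Named were the 12 largest rises and falls that went the same way in all 3 pairs, up to 5 called members of each list, and 12 fixed genes, of which 10 had a probe set. For differences from the other drugs the rule allowed 8 genes a direction, and none passed. Genes outside this rule were named after their values were seen. Members and lists were chosen with earlier results of these data known. Alternatives were the fit without pair terms, MDBP arrays alone, 12 DMSO arrays joined, another quantile normalization, filters on low values, an intensity trend, array weights and each pair left out. A replicate block for MDBP against BZP was added after seeing the data. Promoters came from the RefSeq table of build GRCr8.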

Additional observations from a re-analysis of the deposited data

How the results depend on the processing

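The count of probe sets that MDBP changed, 2167 with the pairs as blocks, was 28 without the replicate block, 17 higher and 11 lower, and 294 with the 12 DMSO arrays joined, 199 higher and 95 lower. The cause was not tested. On the MDBP arrays alone 639 probe sets were higher, and with array weights 1508 were, against 1000. Leaving out 1 pair gave 821 to 1625 changed probe sets, 266 to 738 higher and 555 to 887 lower. These fits have fewer samples. Of the 126 named genes 120 were called, against 5 without the block, 23 with joined controls and 73 to 97 with 1 pair left out, and none reversed. A further quantile normalization (118), an intensity trend (118), array weights (119), filters at a mean log2 value of 4 (119) and 5 (111) and the mean of a gene's probe sets (117) gave similar counts. The difference from the mean of the other drugs had 0 probe sets past the adjusted threshold of limma in every setting run (1327 at an unadjusted p under 0.05). That from BZP had 0 (1150 unadjusted) except with the replicate block across MDBP and BZP on their arrays alone, where it had 2; the same block over all 24 arrays gave 0. These fits were chosen after seeing the data.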

Other observations

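Some gene families outside the lists also held several genes that MDBP changed; they were chosen after their values were seen. The 3 measured enzymes that break down pyrimidines in sequence, Dpyd, Dpys and Upb1, changed by -1.68 ± 0.17, -1.66 ± 0.29 and -1.72 ± 0.19 (SE, n = 3 pairs), and all 3 were called by limma without each pair in turn. Upb1 read 7.72, 8.55 and 10.27 in the controls and 6.55, 6.18 and 8.65 with MDBP, so its ranges overlapped while each pair went down. All 4 measured medium-chain acyl-CoA synthetases were lower, from -0.64 for Acsm2 to -2.08 for Acsm5, with Acsm1 at -1.78 ± 0.13, and 3 were called without pair 2. Acsm2 and Acsm3 were weak, with controls of 3.30, 3.50 and 4.04 and of 3.27, 3.60 and 3.78, below the median of each array. For both families the share of all genes called lower was 5.05%.

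Over all genes 4.68% were higher and 5.05% lower. Of 10 annexins, proteins that bind membranes in the presence of calcium, 2 were higher. Anxa5 read 8.04, 7.81 and 7.79 in the controls and 8.94, 9.30 and 9.42 with MDBP, without overlap, a rise of 1.34 ± 0.18, and Anxa2 rose by 1.22 ± 0.19. Both were called by limma without each pair. Of 56 Rab GTPases, switches of vesicle traffic, 5 were higher and none lower. Their share (8.93%) was above the 4.68% of all genes higher and near the 9.73% called in either direction. Rab32, of lysosome-related organelles, rose by 1.27 ± 0.21 beside Rab30. Of the 56, 2 were called without pair 2 and 3 without pair 3. Of 12 syntaxins, proteins of membrane fusion, 3 were higher, led by Stx3 at 1.32 ± 0.16, and 1 was called without pair 2. Lgals3, the galectin that gathers on damaged lysosomes, rose by 1.26 ± 0.15, from 7.40, 8.54 and 7.58 to 8.77, 9.93 and 8.59, and its relative Lgals9 changed by -0.64 ± 0.14, a call that was lost without pair 1 (adjusted p = 0.0681) and pair 3 (0.154).

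In the interferon list, the median difference was 0.11 with MDBP, -0.15 with BZP, 0.43 with TFMPP and 0.11 with MeOPP. Isg15, a ubiquitin-like protein that interferon induces, stood at 0.07 with MDBP and -1.44 with BZP, and the 95% interval of that difference ran from 0.65 to 2.36. The gene was picked after its values were seen. Without the replicate block the difference did not pass adjustment over all probe sets in limma (adjusted p = 0.9997).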
